A study of Mus musculus with 24 samples.

Results

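The apolipoproteins coat the particles that carry triglyceride and cholesterol in blood, and 10 genes of this system were followed in mouse liver: Apoa1, Apoa2, Apoa4, Apoa5, Apob, Apoc1, Apoc2, Apoc3, Apoe and Mttp. They were taken by gene name from a deposited table of 37583 genes, and all 10 passed the filter on low values, as did 16471 genes in all. The study used mice labelled C57BL6/CBA, 8.5 months old, in 4 groups: wild type left untreated (WT), Smyd3 knockout left untreated (KO), wild type given diethylnitrosamine (DEN_WT) and Smyd3 knockout given diethylnitrosamine (DEN_KO). Diethylnitrosamine (DEN) is a liver carcinogen used to bring on hepatocellular carcinoma in mice, and the treated mice had received 25 mg/kg once into the abdominal cavity. In the knockout a gene-trap cassette sits in intron 5 of the gene for Smyd3, a SET-domain methyltransferase; the trap is in all tissues of the animal and came from 1 embryonic stem cell clone. Each group has 3 RNA libraries, labelled as separate mice. Whole liver was used, so tumour and surrounding tissue are not separated in the DEN groups. Chromatin precipitated from DEN-treated livers with a Smyd3 antiserum (wild type) or an antibody to H3K4me3, a histone mark of active start sites (wild type and knockout), gave 3 deposited lists of regions, each covering 2 replicates.

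Apob is the structural protein that stays with a very low density lipoprotein (VLDL) from its assembly in the liver cell to its uptake as LDL. The microsomal triglyceride transfer protein encoded by Mttp loads lipid onto it. The smaller apolipoproteins move between particles: Apoa1 and Apoa2 are the main proteins of high density lipoprotein (HDL), Apoc2 activates lipoprotein lipase, Apoc3 and Apoc1 restrain lipolysis and remnant uptake, Apoa5 favours lipolysis, and Apoe is the ligand that lets receptors take up remnants. The liver makes all of them, while Apoa4 is best known as a product of the small intestine.

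Values are the authors' normalized read counts, summing to between 22320634 and 28973396 per library, and changes are log2 fold changes on log2(value + 1) from limma with its standard error (SE). An adjusted p under 0.05 (Benjamini-Hochberg over all 16471 genes) is called past the threshold. Smyd3 itself read 59 to 89 in WT, 17 to 29 in KO, 57 to 74 in DEN_WT and 3 to 12 in DEN_KO. Hepatocyte markers were present in every library, with sums over 13 genes from 2341005 to 5814548. A mean of 27.6% of a DEN_WT library went to its 10 highest genes, where the other groups had means of 16.6% to 18.1%. A further scale, chosen after seeing the data, divided by the sum without the 10 genes of highest mean over all libraries. It moved the median log2 change of all genes in DEN_WT against WT from -0.02 to 0.36. Of the calls over all genes in that comparison, 54.5% were higher on the authors' scale, 74.2% after scaling to the library sum and 84.3% on the scale without the top genes. For DEN_KO against DEN_WT the median moved from -0.06 to -0.27 and the share called higher from 48.6% to 30.7%. On the authors' scale, the library sum and the scale without the top genes, the share higher was 59.7%, 69.9% and 71.2% for DEN_KO against KO, 47.1%, 65.1% and 62.7% for KO against WT, and 52.7%, 38.2% and 24.2% for the interaction.

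The start sites lie in 2 gene clusters and at 3 single loci. Apoa1, Apoc3, Apoa4 and Apoa5 lie on chromosome 9 with their outermost starts 40053 bases apart, and Apoe, Apoc1 and Apoc2 on chromosome 7 within 17743 bases (positions on build mm9, as in the deposited table). Promoter windows from RefSeq (build GRCm38.p6), 250 bases before to 50 after the start, matched 8 of the 10 genes by symbol; Apoc1 and Apoc3 were not matched. The 5 windows printed here belong to genes on which the results turn. Apoa1 and Apoa4 were higher in DEN_WT, Apoa2 and Apoa5 were lower there, and Apob passed the threshold in no comparison and had a Smyd3 peak across its start. All read 5′ to 3′ on the plus strand, and in GRCm38.p6 they are chr9:46228380-46228679 (Apoa1), chr9:46240594-46240893 (Apoa4), chr1:171224804-171225103 (Apoa2), chr9:46268383-46268682 (Apoa5) and chr12:7977427-7977726 (Apob). Capitals mark matches to any of 7 motifs searched on both strands: TATAAA (core promoter box), CCAAT (NF-Y box), CCCTCC (a motif reported for Smyd3), CAAAGTCCA (HNF4A element), CAAAGGTCA (direct repeat bound by nuclear receptors), CACGTG (E-box) and TGTTTAC (forkhead site).
Apoa1: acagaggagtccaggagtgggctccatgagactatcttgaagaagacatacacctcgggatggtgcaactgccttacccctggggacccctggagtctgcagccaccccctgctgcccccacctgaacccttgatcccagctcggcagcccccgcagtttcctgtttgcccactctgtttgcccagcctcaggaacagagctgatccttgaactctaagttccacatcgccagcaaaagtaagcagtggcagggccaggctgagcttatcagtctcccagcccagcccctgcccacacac
Apoa4: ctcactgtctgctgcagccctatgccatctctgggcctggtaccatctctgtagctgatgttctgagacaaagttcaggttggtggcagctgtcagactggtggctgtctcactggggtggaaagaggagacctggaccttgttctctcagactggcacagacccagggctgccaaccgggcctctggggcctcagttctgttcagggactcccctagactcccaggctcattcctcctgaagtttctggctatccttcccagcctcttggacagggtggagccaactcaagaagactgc
Apoa2: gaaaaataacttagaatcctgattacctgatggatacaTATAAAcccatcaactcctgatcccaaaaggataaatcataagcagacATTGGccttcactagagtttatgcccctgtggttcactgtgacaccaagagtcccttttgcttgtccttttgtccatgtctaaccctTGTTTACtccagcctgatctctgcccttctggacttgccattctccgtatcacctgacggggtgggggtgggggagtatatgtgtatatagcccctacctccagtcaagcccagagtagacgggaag
Apoa5: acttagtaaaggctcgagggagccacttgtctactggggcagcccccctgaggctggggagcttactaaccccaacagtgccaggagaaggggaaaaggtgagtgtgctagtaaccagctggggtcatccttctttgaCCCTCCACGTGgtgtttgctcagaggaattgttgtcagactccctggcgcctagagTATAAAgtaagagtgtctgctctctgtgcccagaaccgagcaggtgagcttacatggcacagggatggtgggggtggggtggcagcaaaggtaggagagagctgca
Apob: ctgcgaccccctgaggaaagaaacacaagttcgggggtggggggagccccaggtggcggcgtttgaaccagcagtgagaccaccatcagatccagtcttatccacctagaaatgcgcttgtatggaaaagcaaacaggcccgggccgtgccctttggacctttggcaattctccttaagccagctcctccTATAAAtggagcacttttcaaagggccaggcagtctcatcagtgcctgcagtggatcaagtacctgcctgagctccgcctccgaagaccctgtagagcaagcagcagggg
Apoa2 holds TATAAA 212 bases before the start, CCAAT on the other strand 164 before and TGTTTAC 77 before. Apoa5 holds TATAAA 56 bases before the start, and CCCTCC 112 before, which overlaps CACGTG 107 before by 1 base. Apob holds TATAAA 60 bases before the start, while the windows of Apoa1, Apoa4 and Mttp hold none of the 7. Of the windows not printed, Apoc2 holds CCCTCC 191 bases before the start and Apoe holds it on the other strand 41 before. Starts of windows are those of RefSeq, and they were not matched by position to the starts in the deposited table. For Apoc2 the 2 need not be the same site, as its start in the deposited table lies 7 bases from that of Apoc4. Over 32851 RefSeq promoter windows of the same length, TATAAA occurred in 13.6%, CCAAT in 37.4%, CCCTCC in 39.2%, CACGTG in 7.15%, TGTTTAC in 3.65%, CAAAGTCCA in 0.475% and CAAAGGTCA in 0.478%. A match describes the letters only, and no match says nothing of the factor.

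In wild-type livers the DEN group differed from the untreated group in 5 of the 10 genes, against 29.6% of all genes tested. Apoa4, Apoc2 and Apoa1 rose, Apoa2 and Apoa5 fell, and Apob, Mttp, Apoe, Apoc1 and Apoc3 did not pass the test. The groups did not overlap for 6 of the 10 genes, against 43.3% of genes tested, the sixth being Apoc1. The median log2 change over the 10 genes was -0.07, beside -0.02 over all genes.

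Apoa4, a lipid-binding protein of chylomicrons and HDL, changed most. It read 4517, 3390 and 5702 in the WT libraries and 76936, 52253 and 103798 in DEN_WT. Every DEN_WT library was above every WT library. The change was 16.8-fold (log2 4.07 ± 0.39 SE, limma adjusted p = 1.24e-05), which placed Apoa4 at rank 183 among 16471 genes by log2 change. In knockout livers it read 6370, 5190 and 8097 without DEN and 38651, 71293 and 20362 with it, again without overlap, a 5.94-fold rise (log2 2.57 ± 0.39, limma adjusted p = 0.00179). Between the DEN groups Apoa4 overlapped, and its difference of -0.96 ± 0.39 missed the threshold (limma adjusted p = 0.0734). Without DEN_KO replicate 2, the highest library of that group, it was -1.41 and past the threshold (limma adjusted p = 0.0108), and the interaction moved from -1.50 (adjusted p = 0.0801) to -1.95 (adjusted p = 0.0202). Without DEN_WT replicate 2 the DEN_KO against DEN_WT difference was also past it, at -1.22 (limma adjusted p = 0.0487). In the other 10 of 12 leave-outs this difference did not pass. Over all 12 it ran from -1.41 to -0.51, and the interaction from -1.95 to -1.05. Because Apoa4 is an intestinal gene, 10 intestinal markers were read beside it: 4 passed the filter, and the sum of all 10 was 1212 to 1431 in WT, 1370 to 1732 in DEN_WT, 827 to 1645 in KO and 1792 to 2533 in DEN_KO. Fabp2, an intestinal fatty acid binding protein that did not pass in either DEN comparison, was the highest of the 10 in every library. Vil1, a microvillus protein, read 0 to 11 in WT and 14 to 27 in KO. After DEN it read 472, 231 and 341 in wild type and 238, 390 and 98 in the knockout. Slc5a1, a glucose transporter, read 16 to 25 in WT, 17 to 33 in KO, 280 to 432 in DEN_WT, and 52, 127 and 33 in DEN_KO. Both rose with DEN in each genotype, as Apoa4 did, and both were highest of the DEN_KO libraries in replicate 2. By limma, 2 of the 4 tested markers rose and none fell in DEN_WT against WT, and these were the 2. In DEN_KO against DEN_WT 1 of the 4 rose and 1 fell. Lgals4, the remaining tested marker, read 132 to 339 in WT, 116 to 150 in DEN_WT, 241 to 342 in KO and 428 to 795 in DEN_KO. It stood higher in DEN_KO than in DEN_WT without overlap, unlike Apoa4. The part of intestinal markers in the Apoa4 values was not tested.

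**Figure D1:**
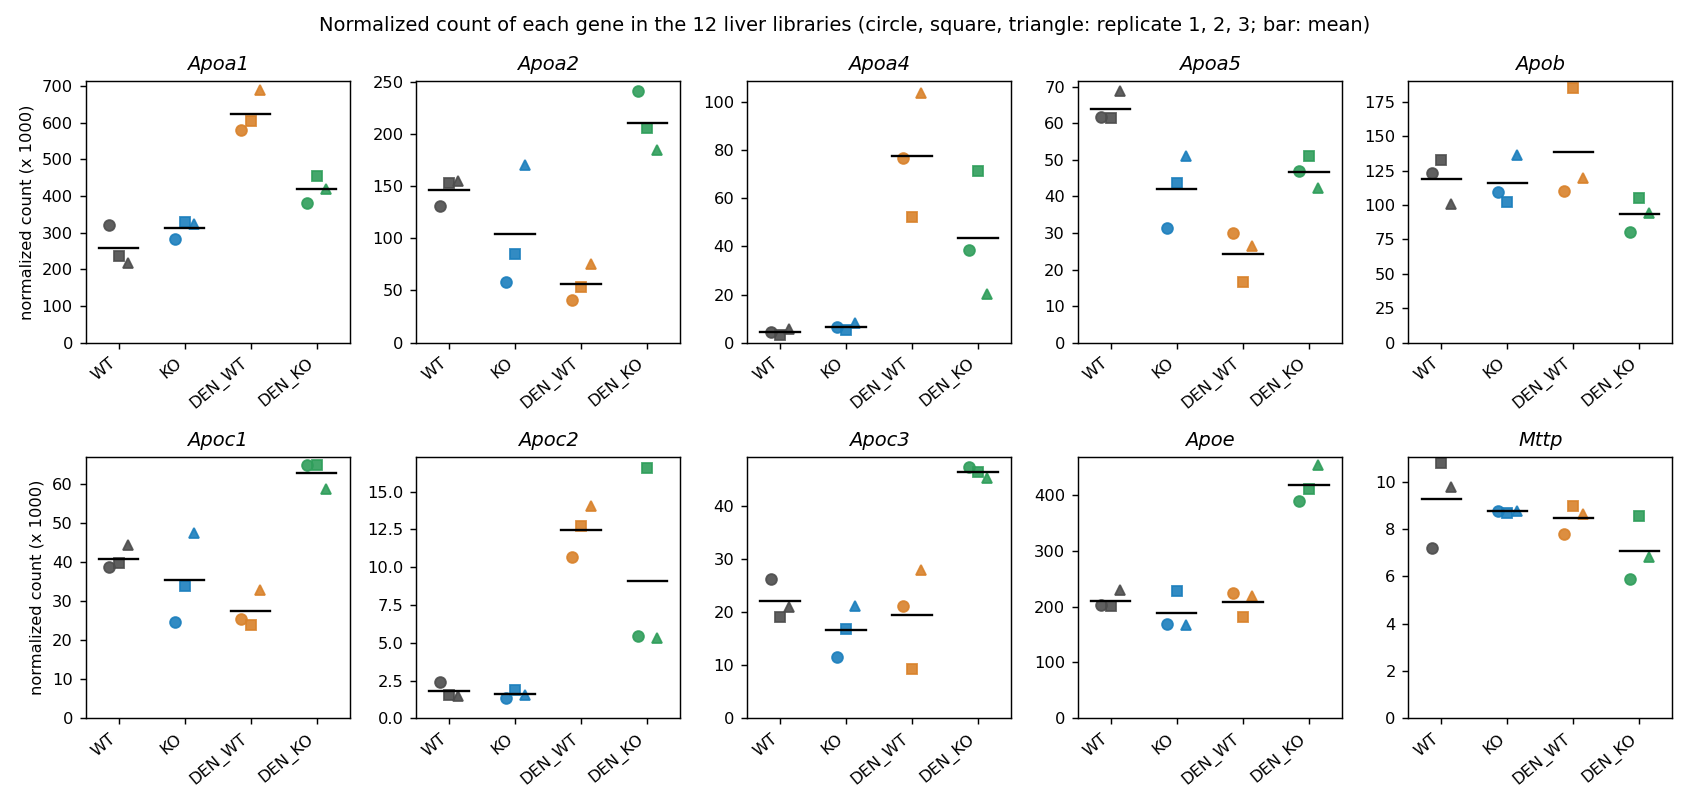
Normalized read count (in units of 1000, linear axis from 0) of the 10 genes in the 4 groups; each point is a library and the bar is the mean of 3. Apoa4 and Apoc2 stand low in both untreated groups and high in both DEN groups, and Apoe, Apoc1 and Apoc3 stand highest in DEN_KO.

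Apoc2, the cofactor that lipoprotein lipase needs, followed the same order. It read 2388, 1534 and 1469 in WT and 10662, 12710 and 14022 in DEN_WT, with no overlap. The rise was 7.06-fold (log2 2.82 ± 0.36, limma adjusted p = 9.46e-05). In the knockout it read 1366, 1908 and 1549 untreated and 5456, 16545 and 5337 after DEN, a 4.92-fold rise (log2 2.30 ± 0.36, limma adjusted p = 0.00185). Of the DEN_KO libraries 1 was above every DEN_WT library and the other 2 were below all of them. The difference between the DEN groups was -0.66 ± 0.36 (limma adjusted p = 0.168). Without DEN_KO replicate 2 it was -1.20 (limma adjusted p = 0.00279), with the interaction at -1.06 (limma adjusted p = 0.0405) in place of -0.52 (limma adjusted p = 0.513). In the other 11 of 12 leave-outs neither passed. Over all 12 the difference ran from -1.20 to -0.38 and the interaction from -1.06 to -0.24. The same DEN_KO replicate 2 was highest of its group in Apoa4. In that library the liver tumour markers Afp and Gpc3 summed to 6013, against 461 and 321 in the other DEN_KO libraries, 4641 to 8452 in DEN_WT and 26 to 104 in the untreated groups. The 6013 was nearly all Afp (5867), while Gpc3 read 146 there, 113 and 153 in the other DEN_KO libraries and 2224 to 3385 in DEN_WT. The part of tumour content in these values was not tested.

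The gene model of Apoc2 spans the whole of its neighbour Apoc4 (3323 bases), and their annotated starts lie 7 bases apart. Apoc4, another small apolipoprotein of VLDL, read 14976 to 17727 in WT and 5787 to 7923 in DEN_WT. It fell in DEN_WT against WT (log2 -1.18 ± 0.18, limma adjusted p = 0.000322), opposite to Apoc2. How shared reads were assigned is not given in the sources used here, so the levels of both genes are uncertain to that extent.

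Apoa1, the main protein of HDL, read 320110, 235816 and 218476 in WT and 579401, 605706 and 690158 in DEN_WT. All 3 DEN_WT libraries were higher than any WT library. The change was 2.45-fold (log2 1.29 ± 0.45), with a limma adjusted p of 0.0429 close to the threshold. The call was lost when any of 10 of the 12 libraries was left out, all but DEN_WT replicate 2 and DEN_KO replicate 2, with log2 changes of 1.18 to 1.46 over the 12 leave-outs. It was also lost with quantile normalization (limma adjusted p = 0.0606), a pseudocount of 5 (0.0571) and a replicate block (0.0634). The same held with no filter on low values (0.165) and with only the 2 groups compared (0.153). It was kept without the trend of the spread over expression (limma adjusted p = 0.000619) and with robust moderation (0.00117). Scaling to the library sum (0.0161) or the upper quartile (0.0368) and a pseudocount of 0.5 (0.0372) kept it too. In the other groups Apoa1 read 282484 to 329855 (KO) and 380659 to 455716 (DEN_KO). The knockout groups did not overlap either, but the DEN effect there was 0.42 ± 0.45 (limma adjusted p = 0.557). DEN_KO lay below DEN_WT in every library, by -0.58 ± 0.45 (limma adjusted p = 0.339). This difference passed without the trend (limma adjusted p = 0.0308) and did not with robust moderation (0.0768).

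Apoa2, the other main HDL protein, went the opposite way in wild type. It read 130521, 153190 and 154863 in WT and 41068, 53331 and 75017 in DEN_WT. Every DEN_WT library was lower than every WT library. Apoa2 fell to 37.6% of its WT level (log2 -1.41 ± 0.40, limma adjusted p = 0.0174). The call was lost without WT replicate 2, WT replicate 3 or DEN_WT replicate 1 (limma adjusted p = 0.0546, 0.0515 and 0.0636), and with quantile normalization (log2 -0.43).

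Apoa5, which helps lipoprotein lipase clear triglyceride, read 61589, 61564 and 68936 in WT and 30111, 16534 and 26435 in DEN_WT. The groups did not overlap. It fell to 36.9% of the WT level (log2 -1.44 ± 0.27, limma adjusted p = 0.00167), a call kept with each library left out in turn. Apoc1, an inhibitor of lipolysis and remnant uptake, read 38637 to 44289 in WT and 23988 to 32939 in DEN_WT. Its groups did not overlap either, but the difference of -0.59 ± 0.26 missed the threshold (limma adjusted p = 0.105) and was 0.06 with quantile normalization. Apoa4 and Apoa5 are neighbours in the chromosome 9 cluster, with starts 27937 bases apart, and changed in opposite directions in wild type.

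On the authors' scale Apob and Mttp showed no change past the threshold in any comparison. Apob read 123664, 132848 and 100600 in WT and 110305, 184928 and 119727 in DEN_WT. The groups overlapped, DEN_WT replicate 2 being the highest of all 12 libraries (log2 0.19 ± 0.32, limma adjusted p = 0.699). Mttp read 7211, 10804 and 9758 in WT and 7781, 8965 and 8613 in DEN_WT, also overlapping (log2 -0.11 ± 0.19, limma adjusted p = 0.688). In DEN_KO against DEN_WT, Apob differed by -0.54 ± 0.32 (limma adjusted p = 0.216) and Mttp by -0.27 ± 0.19 (limma adjusted p = 0.287). With quantile normalization Mttp was past the threshold there (-0.69, limma adjusted p = 0.0168). Every Apob library of DEN_KO, at 80654 to 104953, lay below every DEN_WT library. The sign of the small Mttp difference in DEN_WT against WT changed with quantile normalization (0.37), the library sum (0.10) and the scale without the top genes (0.27).

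Among the DEN-treated livers, the knockout differed from wild type in 4 of the 10 genes, all higher on the authors' scale: Apoa2, Apoc3, Apoc1 and Apoa5. With quantile normalization 5 passed, in both directions: Apoa2 and Apoc1 were higher, Apoa4 (-1.60, limma adjusted p = 0.00588), Apoc2 (-1.08, adjusted p = 0.0401) and Mttp were lower, and Apoc3 and Apoa5 were lost. Of all genes tested, 33.9% passed in this comparison. The groups did not overlap for 7 of the 10 genes, against 49.9% of genes tested. The median log2 difference over the 10 genes was 0.36, beside -0.06 over all genes. This comparison shares the DEN_WT libraries with the one above, so its directions are not independent of that one.

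Apoa2 read 240488, 205686 and 184720 in DEN_KO, above every other library of the study. It was 3.82-fold the DEN_WT level (log2 1.93 ± 0.40, limma adjusted p = 0.00285), a call kept with each library left out and each of the other settings. The untreated knockout libraries were spread from 57639 to 170424, and DEN_KO against KO was 1.15 ± 0.40 (limma adjusted p = 0.0699). Without KO replicate 3, the highest of that group, this was 1.58 (limma adjusted p = 0.0182). The other 11 of 12 leave-outs did not pass, and over all 12 the change ran from 0.80 to 1.58. With every library kept, it passed with quantile normalization (1.40, limma adjusted p = 0.0306), the library sum (0.0456) and robust moderation (0.0371). It did not pass without the trend (limma adjusted p = 0.0558), with the upper quartile (0.0629), with only the 2 groups compared (0.0976) or with no filter (0.144).

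Apoc3, an inhibitor of lipoprotein lipase and of remnant uptake, read 21197, 9224 and 27814 in DEN_WT and 47275, 46369 and 45147 in DEN_KO. The DEN_KO libraries lay close together and above every other library. The difference was 2.63-fold (log2 1.40 ± 0.35, limma adjusted p = 0.00803), a call lost with quantile normalization (log2 0.76, limma adjusted p = 0.0949). In DEN_KO against KO, where KO read 11599, 16839 and 21125, Apoc3 rose 2.88-fold (log2 1.53 ± 0.35, limma adjusted p = 0.0128). That call was lost without KO replicate 1 (log2 1.29, limma adjusted p = 0.0572). In wild type Apoc3 read 26250, 19129 and 20909 without DEN and overlapped the DEN_WT libraries (log2 -0.32 ± 0.35, limma adjusted p = 0.53).

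Apoc1 read 25309, 23988 and 32939 in DEN_WT and 64866, 64926 and 58826 in DEN_KO, with no overlap. The difference was 2.31-fold (log2 1.21 ± 0.26, limma adjusted p = 0.00349). In DEN_KO against KO it was 1.84-fold (log2 0.88 ± 0.26, limma adjusted p = 0.0378). This call was lost without KO replicate 1 or 2, any of the 3 DEN_KO libraries, or WT replicate 2, with log2 changes of 0.65 to 1.12 over the leave-outs. Apoa5 read 46825, 51110 and 42304 in DEN_KO, above all DEN_WT libraries and below all WT libraries. It was 1.97-fold the DEN_WT level (log2 0.98 ± 0.27, limma adjusted p = 0.0145). The call was lost without DEN_WT replicate 2, its lowest library (log2 0.72, limma adjusted p = 0.0521), and with quantile normalization (log2 0.31).

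Apoe, the remnant ligand, had the plainest separation without passing the test. It read 389526, 410271 and 453872 in DEN_KO, while the other 9 libraries lay between 166744 and 229235. The difference from DEN_WT was 2.02-fold (log2 1.01 ± 0.38) with a limma adjusted p of 0.0529, and from KO 2.24-fold (log2 1.16 ± 0.38) with 0.0537. It passed with a pseudocount of 0.5 (0.0477 and 0.0486), with robust moderation (0.00421 and 0.00553) and without the trend of the spread over expression (0.00206 and 0.00355). With the library sum (0.0560 and 0.0431) and the upper quartile (0.0502 and 0.0486) it passed only against KO. Other settings moved it the other way: with no filter on low values the limma adjusted p was 0.173 and 0.170, and with only the 2 groups compared 0.191 and 0.0590. DEN_WT differed from WT by -0.03 ± 0.38 (limma adjusted p = 0.965). Macrophages also make Apoe. The summed macrophage markers (17 genes) were 7525 to 8059 in WT, 8615 to 10198 in KO, 4844 to 17327 in DEN_WT and 13831 to 19070 in DEN_KO, overlapping between the DEN groups. Of the 17, 3 rose and 3 fell in DEN_KO against DEN_WT. The 3 that rose, like Apoe, stood higher in DEN_KO without overlap. Clec4f, a lectin of the resident liver macrophages, read 2797, 802 and 2076 in DEN_WT and 3344, 3266 and 4621 in DEN_KO (log2 1.15 ± 0.34, limma adjusted p = 0.0184). C1qa, a complement component, read 872, 249 and 530 in DEN_WT and 1102, 1222 and 1631 in DEN_KO. Aif1, a calcium-binding protein of macrophages, read 14 to 68 and 89 to 143. The 3 that fell, Gpnmb, Trem2 and Ccr2, stood lower in DEN_KO without overlap, opposite to Apoe. Gpnmb read 637, 122 and 220 in DEN_WT and 8, 38 and 2 in DEN_KO. Trem2 read 51 to 123 and 5 to 25, and Ccr2 75 to 213 and 22 to 47. The part of macrophages in the Apoe values was not tested. In bulk liver, fewer cells of a type and less RNA per cell cannot be told apart.

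**Figure D2:**
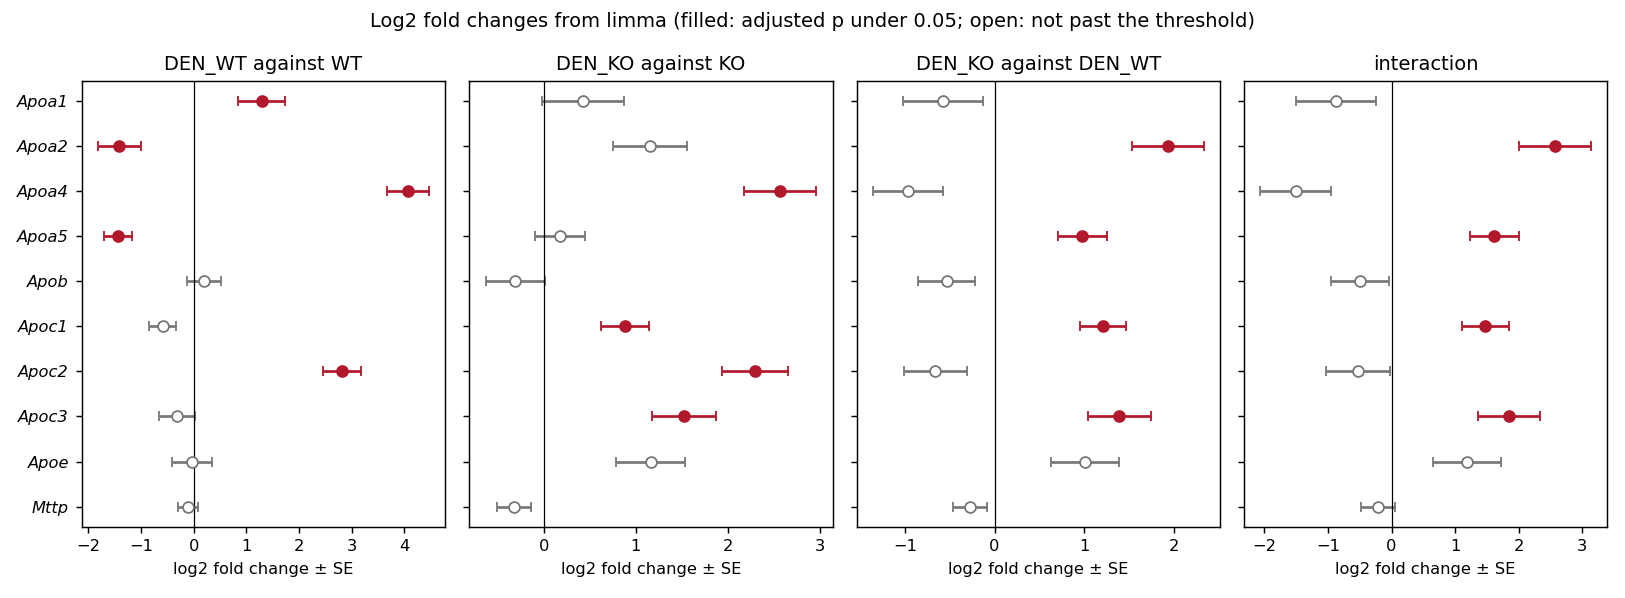
Log2 fold change with its SE (horizontal axis, in log2 units) of the 10 genes in 4 comparisons from 1 limma fit over 12 libraries; filled points are past an adjusted p of 0.05. In DEN_WT against WT the filled points lie on both sides of 0, and in the other comparisons all filled points lie above 0.

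The knockout without DEN gave no call among the 10 genes, where 1.16% of all genes passed. By limma, 1 of them, Apoa5, had an unadjusted p under 0.05. It read 31255, 43707 and 51107 in KO, below every WT library, with a log2 difference of -0.63 ± 0.27 (limma adjusted p = 0.295). The 10 log2 differences lay between -0.63 and 0.54. Those of Apob and Mttp changed sign after quantile normalization, scaling to the library sum and scaling without the top genes, and that of Apoe after quantile normalization.

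DEN changed 4 of the 10 genes within the knockout (Apoa4, Apoc2, Apoc3 and Apoc1, all higher), against 14.9% of all genes. Without KO replicate 1 only Apoa4 and Apoc2 passed. The interaction (the knockout's DEN effect minus the wild-type one) passed for Apoa2, Apoc3, Apoa5 and Apoc1, against 16.6% of all genes. For Apoa2 it was 2.56 ± 0.57 (limma adjusted p = 0.0104), from a DEN effect of -1.41 in wild type and 1.15 in the knockout. For Apoc3 it was 1.84 ± 0.49 (limma adjusted p = 0.0232), and it was lost without KO replicate 1 (1.61, limma adjusted p = 0.0624). Apoa5 (1.62 ± 0.39, limma adjusted p = 0.0146) and Apoc1 (1.47 ± 0.37, limma adjusted p = 0.0176) kept the call with each library left out. That of Apoe did not pass, at 1.19 ± 0.53 (limma adjusted p = 0.143). It passed without the trend (limma adjusted p = 0.0129) and with robust moderation (0.0234), and was at 0.352 with no filter on low values. With quantile normalization the interaction passed for Apoa2 and Apoa4 and was lost for Apoa5, Apoc1 and Apoc3.

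Ratios of members within a library do not depend on the scaling between libraries. Their absolute size also carries transcript length and is not interpreted. The pairs were chosen after the values had been seen, and p = 0.10 is the smallest that an exact permutation of 3 against 3 libraries allows. The ratio of Apoa1 to Apoa2, the main HDL pair, was 1.80 ± 0.57 (SD, n = 3) in WT and 11.6 ± 2.46 in DEN_WT, 6.52-fold higher without overlap (exact p = 0.10, two-sided). In DEN_KO it was 2.02 ± 0.38, 5.70-fold lower than in DEN_WT and also without overlap (exact p = 0.10). KO libraries, at 3.56 ± 1.53, overlapped both WT and DEN_KO. The ratio of Apoc2 to Apoc3, activator to inhibitor of lipoprotein lipase, was 0.0805 ± 0.010 in WT, 0.795 ± 0.50 in DEN_WT and 0.197 ± 0.14 in DEN_KO. DEN_WT lay 8.80-fold above WT and 4.16-fold above DEN_KO without overlap in either case (exact p = 0.10 each). The ratio of Apoe to Apob was 2.93-fold higher in DEN_KO (4.51 ± 0.52) than in DEN_WT (1.61 ± 0.56), again without overlap (exact p = 0.10). Over the 20 tests of 5 ratios in 4 comparisons the smallest adjusted p was 0.20.

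**Figure D3:**
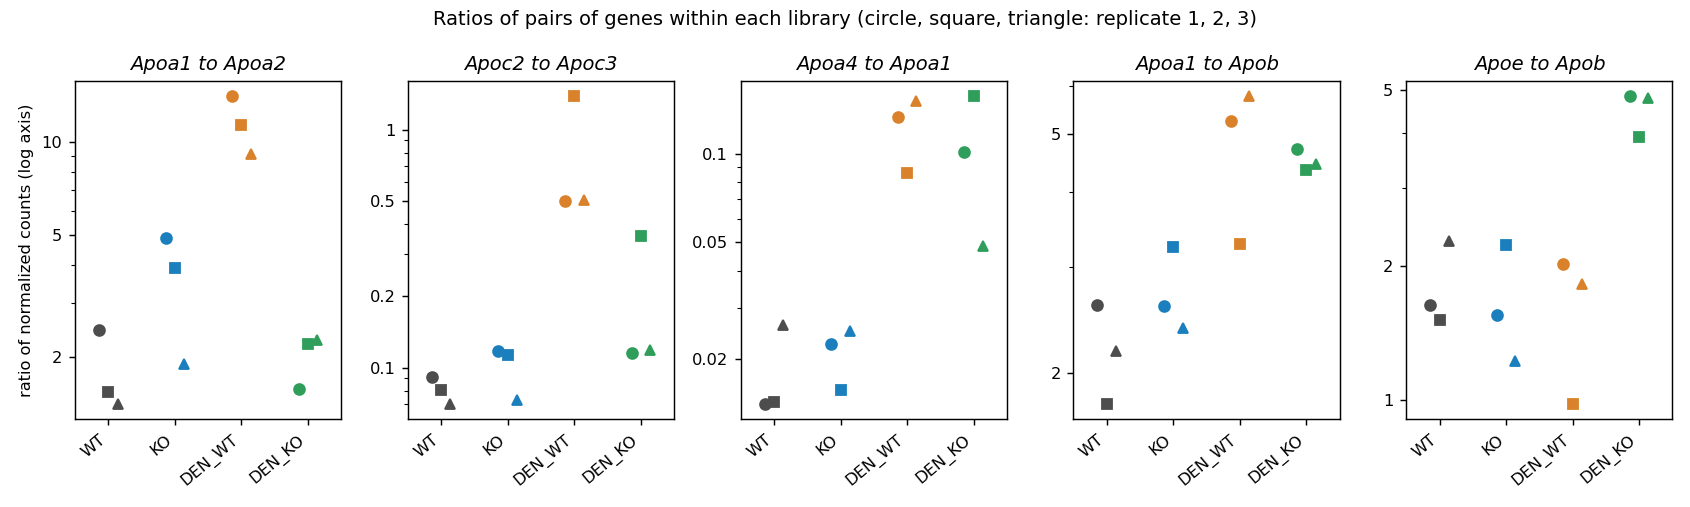
Ratio of the normalized counts of 2 genes in the same library (log axis, no unit), for 5 pairs and 4 groups; each point is a library. Apoa1 to Apoa2 and Apoc2 to Apoc3 stand highest in DEN_WT without overlap, and Apoe to Apob stands highest in DEN_KO.

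Across the 12 libraries the log values of Apoa1, Apoa4 and Apoc2 varied together, with Pearson r of 0.906 (Apoa1 and Apoa4), 0.911 (Apoa1 and Apoc2) and 0.954 (Apoa4 and Apoc2). Apoa2 varied most closely with Apoc1 (r = 0.957), and Apoc3 with Apoc1 (r = 0.861) and Apoe (r = 0.851). These r describe 12 libraries of 4 groups that share their group differences. By the same measure over 10687 other genes, the closest to Apoa1 was Prkd2 (r = 0.981), to Apoa4 Pecam1 (0.973), to Apoc2 Ly6d (0.981), to Apoa2 Pcbd2 (0.969), to Apoc1 Cox7a2 (0.957) and to Apoe Mif (0.969). For Apoa5 it was Mcm10 (0.945), for Apob Cstf3 (0.918), for Apoc3 Mrps26 (0.922) and for Mttp Crebzf (0.926). Together the 10 genes made up 3.28 ± 0.40% of all values in WT, 3.36 ± 0.38% in KO, 5.18 ± 0.40% in DEN_WT and 5.73 ± 0.35% in DEN_KO (SD, n = 3 each).

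Chromatin at the starts was read from the lists of regions, which give positions and no heights. All 10 genes had an H3K4me3 region within 1000 bases of the start in wild type, against 70.5% of tested genes, and all 10 in the knockout, against 72.4%. These regions were wide: the median width over the genes was 5491 bases in wild type and 5950 in the knockout, beside 1807 and 2038 over all tested genes with a region. Apoa1 and Apoc3, transcribed towards each other, share 1 region (chr9:46036765-46043802 in wild type, 7038 bases), which only 74 of 15579 regions match or exceed in width. In the knockout it was 7388 bases. Apoa4 had a region of 2473 bases in wild type and of 1031 in the knockout. At Mttp the order was the reverse, with 1100 bases in wild type and 3136 in the knockout. Both of these regions also span the start of Rg9mtd2, 60 bases away on the other strand, and cannot be assigned to 1 of the genes. Over the 10 genes 6 were wider in the knockout, where 67.4% of 11329 tested genes were. With 1 list per genotype, widths have no replicate check.

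Smyd3 peaks lay within 1000 bases of the start at 3 of the 10 genes, against 64.2% of tested genes. They were Apoa1 (chr9:46036488-46040256), Apob (chr12:7984086-7985024) and Mttp (chr3:137806195-137807316). The peak at Apoa1 covered the whole gene and was 3769 bases wide, a width that 30 of 27324 Smyd3 peaks reach. The Mttp peak lies between Mttp and Rg9mtd2, a gene on the other strand that starts 60 bases away, and cannot be assigned to 1 of them. Just outside the window was Apoa5, whose peak of 4255 bases began 1008 bases downstream of the start, inside the gene. Counting this one, 14 Smyd3 peaks were as wide or wider. Within 5000 bases 8 of the 10 genes had a peak, against 68.9% of tested genes, and some peaks served more than 1 gene: the peak of Apoa1 was also nearest to Apoc3, 3463 bases downstream of its start. The Apoa4 peak began 1744 bases inside the gene. Apoc2 had none nearer than 14373 bases, and no peak lay within 20000 bases of the start of Apoa2. The Apoc2 start used for all regions lies 7 bases from that of Apoc4, so a region there cannot be assigned to 1 of them.

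The 3 genes with a Smyd3 peak over the start differed in their RNA. Apoa1 rose in DEN_WT against WT, while Apob and Mttp passed in no comparison on the authors' scale. Of the 4 genes that were higher in DEN_KO than in DEN_WT, none had a Smyd3 peak within 1000 bases of its start. For 3 a peak lay within 5000 bases: Apoa5 at 1008, Apoc1 at 3138 and Apoc3 at 3463 bases. The peak nearest to Apoc1 (chr7:20281145-20282652) overlaps the gene body of Apoe. The peak nearest to Apoc3 is that of Apoa1 and lies beyond the end of Apoc3. Smyd3 peaks were called in wild type livers after DEN, and all chromatin samples of the series came from DEN-treated mice.

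**Figure D4:**
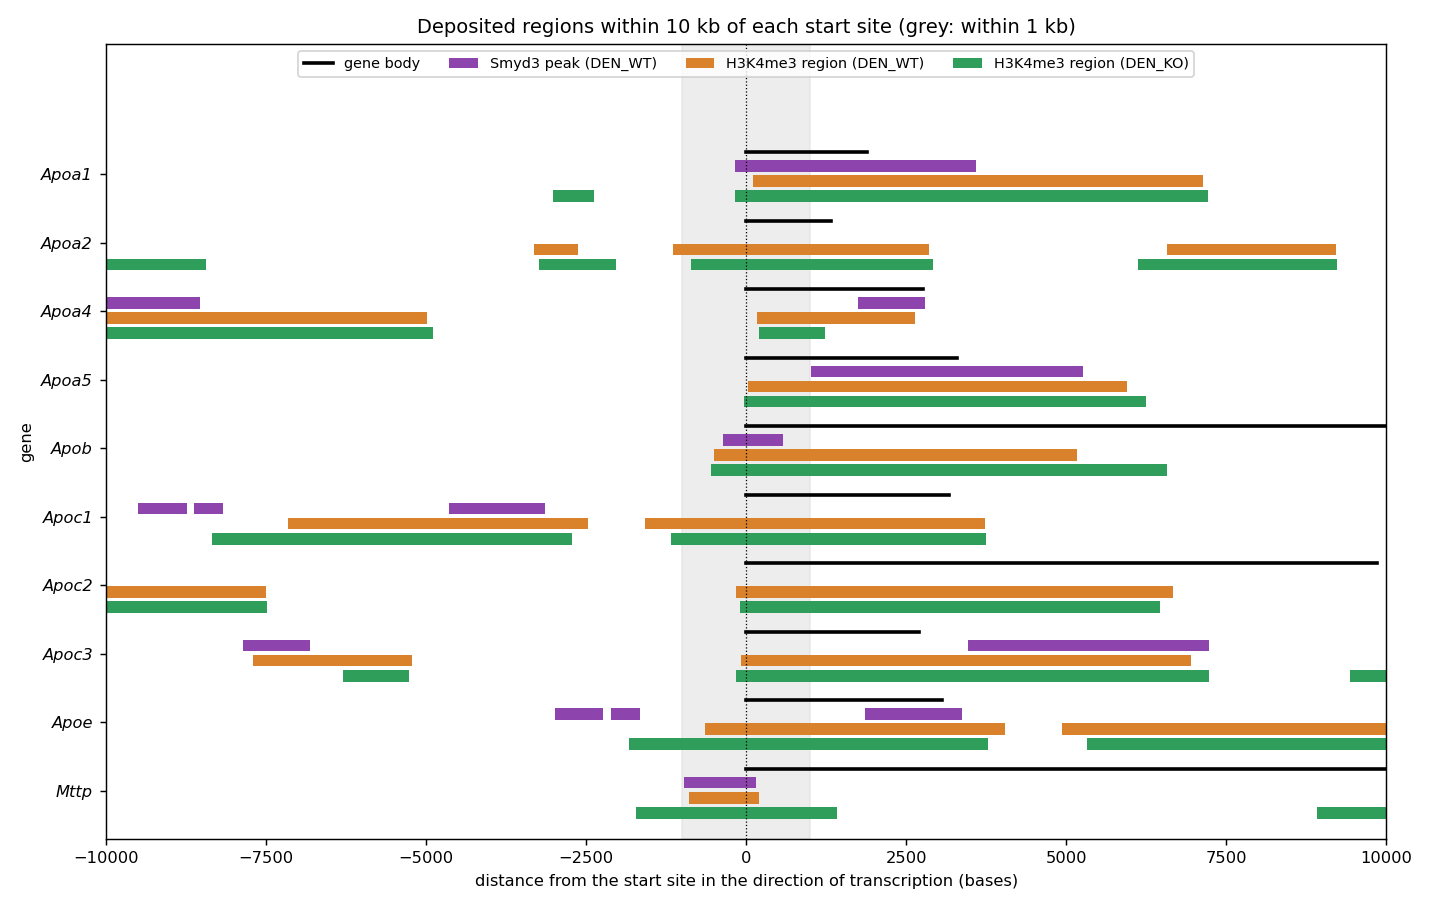
Smyd3 peaks (DEN_WT) and H3K4me3 regions (DEN_WT and DEN_KO) by distance in bases from each start site, with transcription to the right; the black line is the gene body and the grey band marks 1000 bases on either side. H3K4me3 regions lie in the band at all 10 genes, and Smyd3 peaks in it at Apoa1, Apob and Mttp.

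Other apolipoproteins were read as a list of 13 genes, 12 of them tested. In DEN_WT against WT 1 rose and 3 fell, with a median log2 change of 0.14, and in DEN_KO against DEN_WT 3 rose and 1 fell, with a median of 0.46. Apom, an HDL protein that carries sphingosine 1-phosphate, rose in DEN_WT (2.02 ± 0.27, limma adjusted p = 0.00013) and was lower in DEN_KO (-1.12 ± 0.27, limma adjusted p = 0.00607). Apoc4 was higher in DEN_KO than in DEN_WT (1.34 ± 0.18, limma adjusted p = 0.000187), as was Apoh, a phospholipid-binding plasma protein (0.92 ± 0.29, limma adjusted p = 0.0277). Saa4, an HDL-bound serum amyloid, fell in DEN_WT (-0.98 ± 0.28, limma adjusted p = 0.017).

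Of 17 tested genes for Apob editing and particle assembly, 5 rose and 4 fell in DEN_WT against WT (median 0.00), and 3 fell in DEN_KO against DEN_WT (median -0.12). Tm6sf2, which supports lipidation of VLDL, rose (1.92 ± 0.25, limma adjusted p = 0.000125), as did Sort1, a sorting receptor that binds Apob (1.36 ± 0.23, limma adjusted p = 0.000764), and Pltp, the phospholipid transfer protein (1.23 ± 0.36, limma adjusted p = 0.0189). Sort1 (-0.84), Tm6sf2 (-0.77) and Sar1a, a GTPase of the vesicles that leave the endoplasmic reticulum (-0.53), were lower in DEN_KO than in DEN_WT. Mttp and Apob themselves passed in neither comparison on the authors' scale.

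Of 12 lipoprotein receptor and uptake genes, 7 rose in DEN_WT against WT, none fell and 5 did not pass, where 29.6% of all genes passed (median 0.65, beside -0.02 over all genes). Some genes were taken out of this list after the fit and are not reported, so the count covers only those 12. The named rises were Cd36, a fatty acid receptor (1.50 ± 0.49, limma adjusted p = 0.0335), Lsr, a remnant receptor (1.18 ± 0.23, limma adjusted p = 0.002), and Lrp8, a receptor for Apoe (1.86 ± 0.59, limma adjusted p = 0.0307), which was low, with means of 2.33 in WT and 11.3 in DEN_WT. Scarb1, the HDL receptor, also rose (1.11 ± 0.14, limma adjusted p = 0.000104). In DEN_KO against DEN_WT, Scarb1 was the 1 gene of the 12 that fell (-0.69 ± 0.14, limma adjusted p = 0.00268), and none rose (median -0.08).

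Of 12 tested lipases and remodelling genes, with which these apolipoproteins work, 2 rose and 4 fell in DEN_WT against WT (median -0.43), and 5 rose and 2 fell in DEN_KO against DEN_WT (median 0.41). Lpl, lipoprotein lipase, the enzyme that Apoc2 activates and Apoc3 restrains, read 490, 367 and 182 in WT, 3976, 6396 and 5691 in DEN_WT, and 865, 819 and 317 in DEN_KO. DEN_WT stood above both without overlap (4.03 ± 0.40 against WT, limma adjusted p = 1.4e-05; DEN_KO against DEN_WT -3.11 ± 0.40, limma adjusted p = 0.00016). Lipg, endothelial lipase, which acts on HDL, fell to means of 66.7 in DEN_WT from 409 in WT (-2.52 ± 0.32, limma adjusted p = 9.19e-05) and was higher in DEN_KO (2.14 ± 0.32, limma adjusted p = 0.000363). Angptl4, an inhibitor of lipoprotein lipase, fell in DEN_WT (-1.75), but the groups overlapped. It read 1378, 2284 and 6288 in WT and 2129, 375 and 647 in DEN_WT. In DEN_KO it was higher than in DEN_WT (2.76 ± 0.57, limma adjusted p = 0.00274). Anxa2, a calcium-dependent phospholipid-binding protein, rose in DEN_WT (3.01 ± 0.27, limma adjusted p = 7.21e-06).

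Among 8 exporters of sterol and phospholipid, 2 rose and 1 fell in DEN_WT against WT (median 0.34), and 1 rose and 3 fell in DEN_KO against DEN_WT (median -0.24). Abcg1, which hands cholesterol to HDL, rose in DEN_WT (1.56) and was lower in DEN_KO (-1.09). Abca8b, an ABC transporter, did likewise (1.03 and -1.02), and Abcb4, the phospholipid exporter of bile, did the opposite (-0.59 and 1.28).

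Of 24 regulators known to act on these genes, 2 rose and 7 fell in DEN_WT against WT (median -0.28), and 4 rose and 2 fell in DEN_KO against DEN_WT (median 0.18). Creb3l3, a liver transcription factor that drives Apoa4, Apoa5 and Apoc2, read a mean of 9947 in WT, 4655 in DEN_WT and 13630 in DEN_KO (-1.10 ± 0.18, limma adjusted p = 0.000665, and 1.53 ± 0.18, limma adjusted p = 0.000116). Among these, Apoa5 moved in the direction of Creb3l3 in both comparisons, whereas Apoa4 and Apoc2 rose in DEN_WT. Nr1h4, the bile acid receptor, fell in DEN_WT (-1.42) and was lower in KO than in WT (-1.14 ± 0.24, limma adjusted p = 0.0388). Rora, a nuclear receptor, rose in DEN_WT (1.10). Nr0b2, a repressor induced by bile acids (1.29), and Ppara, the fatty acid receptor (0.81), were higher in DEN_KO than in DEN_WT.

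The 14 tested neighbours of the 2 clusters were read to see whether the changes ran across the loci. In DEN_WT against WT 4 rose and none fell (median 0.23), and in DEN_KO against DEN_WT 1 rose and 4 fell (median 0.07). Relb (2.71), Tagln (1.36) and Bcam (1.13) rose in DEN_WT. In DEN_KO against DEN_WT, Relb (-0.97) and Bcl3 (-0.59) fell, while Tomm40, the gene beside Apoe, rose (0.59).

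Markers of other cells moved with the groups, and their part in the values above was not tested. In DEN_WT against WT 5 of 11 stellate cell markers rose and 2 fell, 5 of 9 endothelial markers, 3 of 17 macrophage markers and 2 of 6 cholangiocyte markers rose, and none of 8 lymphocyte markers passed. The cholangiocyte sum was 1271 to 1539 in WT, 10397 to 17403 in DEN_WT and 1536 to 2328 in DEN_KO, mostly Spp1, while Krt19 and Epcam stayed at or below 55 in every library. In DEN_KO against DEN_WT 6 of 11 stellate cell markers fell and 1 rose, 2 of 9 endothelial and 2 of 6 cholangiocyte markers fell, 3 of 17 macrophage markers rose and 3 fell, and 1 of 8 lymphocyte markers rose. Of 13 hepatocyte markers 2 rose and 2 fell in the first comparison, and 6 rose and 1 fell in the second. None of the markers was at 0 in every library.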

How the data were processed

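RNA and chromatin came from whole mouse liver. The submitters' processing notes list DESeq, Bowtie2, cutadapt, Cufflinks and TopHat2 2.0.9, and build mm9. The tool that counted reads, the peak caller and any use of strand are not stated there or in the labels. The deposited RNA score is a normalized read count per gene that the authors scaled per library and rounded. This is read from the values, whose recomputed median-ratio factors lay between 0.999 and 1.00. Because these are not raw counts, limma 3.58.1 (R 4.3.3) was run on log2(value + 1) with a single fit of 4 groups, a trend of the spread over expression, and genes with at least 10 in at least 3 libraries. Depth in reads is not known from these values, and the spread over 3 libraries gives the precision. The 12 files of single libraries repeat the values of the series table.

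The deposited region lists give mm9 positions and a score of 0 in every line, per the files, with 1 list for 2 replicates; whether reads were pooled is not stated. A region counted at a start when it overlapped 1000 bases on either side by at least 1 base. RNA polymerase II and input libraries were not analysed here.

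The fit was tested on simulated data. Some genes are not reported here and were taken out of the receptor list after the fit. The members and the gene lists were chosen with earlier results of these data known. Named genes were all 10 members and some from each of 7 pathway lists (other apolipoproteins, Apob editing and assembly, receptors, lipases, exporters, regulators, cluster neighbours). From each list these were up to 3 with the largest change past the threshold in DEN_WT against WT and in DEN_KO against DEN_WT. Afp, Gpc3, Spp1, Krt19, Epcam, Fabp2, Vil1, Slc5a1, Lgals4, Clec4f, C1qa, Aif1, Gpnmb, Trem2 and Ccr2 were added after their values were seen. Exact permutation tests used scipy 1.17.1. Alternatives were other pseudocounts, scalings, filters and moderations, a replicate block, only the 2 groups compared, leaving out each library, and other windows and widths for regions.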

Additional observations from a re-analysis of the deposited data

Results flagged for a closer look

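The effect of DEN differed between the genotypes, by limma's interaction term at an adjusted p under 0.05, for 4 of the 10 genes. The interaction is the log2 DEN effect in the knockout minus that in wild type. It was 2.56 for Apoa2, 1.84 for Apoc3, 1.62 for Apoa5 and 1.47 for Apoc1. In each case the wild-type effect was negative and the knockout effect positive, although the wild-type effect passed the threshold only for Apoa2 and Apoa5, and the knockout effect only for Apoc3 and Apoc1.

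The same test passed for 13 of the 29 other named genes, where 16.6% of all genes tested passed. The 29 were chosen for large changes in DEN_WT against WT or in DEN_KO against DEN_WT, contrasts that share libraries with the interaction, so this count is a description. The interaction was positive for Creb3l3 (1.61), Nr1h4 (1.60), Lipg (1.60), Nr0b2 (1.32) and Apoc4 (1.13). It was negative for Lpl (-2.53), Apom (-1.69), Tm6sf2 (-1.67), Anxa2 (-1.65), Rora (-1.38), Abca8b (-1.27), Sort1 (-1.15) and Scarb1 (-0.94).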

How the results depend on the processing

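The members had 1140 values under the other settings of the RNA fit. Of these, 1047 kept their direction and side of the threshold, 35 lost a call, 30 gained one and 28 changed sign. None of these 28 was a called value. The members past the threshold in DEN_WT against WT were 5, with 3 after quantile normalization and 3 to 5 with a library left out (3 without WT replicate 2, WT replicate 3 or DEN_WT replicate 1). In DEN_KO against KO they were 4, with 2 to 5 leaving out a library, and for the interaction 4, with 2 after quantile normalization and 3 to 6 leaving out a library. In DEN_KO against DEN_WT they were 4 to 6 and in KO against WT 0 throughout the leave-outs. Smyd3 peaks were counted at 8 members in place of 3 with 5000 bases on either side.

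With quantile normalization the DEN_WT against WT changes of Apoc1, Apoc3, Apoe and Mttp became 0.057, 0.28, 0.32 and 0.37, those of Apob, Apoe and Mttp in KO against WT 0.12, 0.14 and 0.0082, and that of Apoa5 in DEN_KO against KO -0.0032. Scaled to the library sum, Apoe and Mttp became 0.19 and 0.10 in DEN_WT against WT, and Apob and Mttp 0.079 and 0.058 in KO against WT. Without the 10 highest genes, Apoc3, Apoe and Mttp became 0.071, 0.36 and 0.27 in the former, and Apob and Mttp 0.068 and 0.047 in the latter. With the upper quartile Apoe became 0.027 in DEN_WT against WT. Leaving out a library, ranges crossing 0 were -0.041 to 0.33 (Apob), -0.65 to 0.15 (Apoc3), -0.083 to 0.069 (Apoe) and -0.28 to 0.0085 (Mttp) in DEN_WT against WT, -0.16 to 0.045 (Apob), -0.27 to 0.085 (Apoc2) and -0.23 to 0.059 (Mttp) in KO against WT, and -0.020 to 0.33 (Apoa5) in DEN_KO against KO. The cause was not tested.

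The labels number the mice of each group, but 18 same-numbered pairs correlated between -0.0996 and 0.12, with 1 over 0.1, so the numbers were not taken to pair the samples. A replicate block gave 4 members in DEN_WT against WT, losing Apoa1, 4 in DEN_KO against DEN_WT, 0 in KO against WT, 4 in DEN_KO against KO and 4 for the interaction. Groups of 3 mice and 1 region list per genotype limit every value here.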
